A study of Homo sapiens with 12 samples.

Results

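The response to the androgen R1881 was measured in LNCaP cells transfected with an siRNA against ERRγ, by setting the arrays titled siERRg with R1881 against the arrays titled siERRg with vehicle. The sample titles chose the members, which were 6 of the 12 arrays of the series (3 with R1881 and 3 with vehicle), and 17123 genes were tested across them. LNCaP is an established human prostate cancer cell line with an active androgen receptor, and R1881 is a synthetic androgen. The other 6 arrays, 3 with R1881 and 3 with vehicle, came from cells given a control siRNA and served for comparison. All cells were kept in medium with 2% serum stripped of steroids and were transfected 48 h before treatment. They were then given either 10 nM R1881 or the ethanol vehicle for 72 h, and medium and treatment were renewed at 48 h. The labels speak of triplicates without saying whether these were separate cultures. The p-values therefore reflect the spread among these triplicates alone, which could be technical.

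The androgen receptor is a steroid-activated transcription factor that binds DNA when an androgen occupies it and raises or lowers the transcription of its target genes. In prostate cells its targets include secreted kallikrein proteases and enzymes of lipid synthesis. ERRγ, encoded by ESRRG, is an orphan nuclear receptor with no known natural hormone that, in many tissues, drives genes of mitochondrial oxidative metabolism together with its coactivators of the PGC-1 family. In bulk RNA, a change in the RNA per cell and a change in the make-up of the cell population cannot be told apart.

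Signals are given on a normalized log2 scale, on which a difference of 1 is a 2-fold change, and a gene was called at a limma adjusted p (Benjamini-Hochberg over all 17123 genes) under 0.05. A probe counts as detected on an array when its detection p-value, which compares it with that array's negative controls, is under 0.05. Of 47323 probes, 18698 to 20536 were detected on an array (39.5 to 43.4%). Within a group, arrays had correlations of 0.99 to 0.995, and R1881 arrays correlated with vehicle arrays of the ERRγ siRNA at 0.963 to 0.965. The labelled cell type had its markers: all 24 luminal prostate markers on the array were detected on at least 3 of the 12 arrays, against 2 of 13 basal, 7 of 23 neuroendocrine, 11 of 21 stromal and 5 of 16 immune markers. Some were undetected with 1 of the treatments in cells with the ERRγ siRNA: 4 luminal, 0 basal, 1 neuroendocrine, 3 stromal and 1 immune. KLK2 and KRT19, both luminal, were undetected on its vehicle arrays, so the luminal count rests in part on arrays with R1881. The number of arrays limits the precision, with a median distance of 0.253 between a log2 change and either end of its 95% interval.

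The siRNA's target could not be followed. None of the 3 ESRRG probes was detected on any of the 12 arrays, and their lowest detection p-values were 0.0623, 0.308 and 0.297. Raw signals of the first probe were 93.4, 91.8 and 91.9 with R1881 and 99.9, 87.9 and 90.9 with vehicle in cells with the ERRγ siRNA. They were 92.8, 92.1 and 95.6 with R1881 and 95.8, 94.6 and 95.9 with vehicle for the control siRNA. All of these signals lie below detection, so depletion of ESRRG could not be measured with either treatment. Of the related receptors, ESRRA, which encodes ERRα, was detected on 12 of 12 arrays and ESRRB on 1 of 12. ESRRA had log2 signals of 7.37, 7.36 and 7.50 with R1881 against 7.37, 7.24 and 7.38 with vehicle, a change of 0.08 ± 0.09 SE that was not called (limma adjusted p = 0.488).

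Promoter sequences of 3 genes that recur below are shown first. KLK3 was among the strongest rises and UGT2B15 among the strongest falls of its list, and each has the hexamer AGAACA, the half-site that the androgen receptor recognizes, in this window. NDUFB4, a complex I gene, holds the ERR response element TNAAGGTCA. The sequences are RefSeq's on GRCh38.p14, from 250 bases before the gene's start to 50 bases after it, 5′ to 3′ along the gene, and capitals mark the motif match. KLK3 is at chr19:50854665-50854964 on the plus strand and its match begins at base -170 from the start. UGT2B15 is at chr4:68670603-68670902 on the minus strand with a match beginning at -172. NDUFB4 is at chr3:120596086-120596385 on the plus strand with a match beginning at -41.
KLK3: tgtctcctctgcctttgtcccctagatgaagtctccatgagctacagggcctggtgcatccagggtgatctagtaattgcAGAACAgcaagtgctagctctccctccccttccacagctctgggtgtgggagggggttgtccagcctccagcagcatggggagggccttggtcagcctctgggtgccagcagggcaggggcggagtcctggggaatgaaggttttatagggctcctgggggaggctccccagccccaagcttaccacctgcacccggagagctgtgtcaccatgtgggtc
UGT2B15: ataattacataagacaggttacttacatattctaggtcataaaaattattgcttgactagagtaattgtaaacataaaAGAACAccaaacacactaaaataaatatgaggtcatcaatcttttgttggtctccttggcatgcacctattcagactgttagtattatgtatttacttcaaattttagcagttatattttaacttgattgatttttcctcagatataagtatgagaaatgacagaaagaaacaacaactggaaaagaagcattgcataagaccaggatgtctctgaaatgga
NDUFB4: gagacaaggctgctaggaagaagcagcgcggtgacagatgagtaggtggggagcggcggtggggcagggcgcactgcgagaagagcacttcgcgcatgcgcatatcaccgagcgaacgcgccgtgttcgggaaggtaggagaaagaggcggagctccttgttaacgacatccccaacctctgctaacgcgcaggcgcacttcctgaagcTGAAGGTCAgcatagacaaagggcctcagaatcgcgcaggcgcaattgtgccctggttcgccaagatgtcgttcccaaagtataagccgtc

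The share of promoters with a match was counted for called genes and for genes that were not called. Searched on both strands, AGAACA was present in 14.9% of all 27305 RefSeq promoters and in 9.06% of the 9943 promoters of tested genes that the table holds. It was present in 8.68% of promoters of genes called higher, 8.66% of those called lower and 9.36% of those not called. Among genes that changed at least 4-fold, 8 of 77 promoters of higher genes (10.4%) and 10 of 45 promoters of lower genes (22.2%) held it. The full palindromic androgen response element, an inverted repeat of AGNACA with 3 bases between, which overlaps AGAACA matches, occurred in 20 of all 27305 promoters and in 0 of 9943 promoters of tested genes. TNAAGGTCA was present in 0.963% of all promoters, in 0.616% of those of genes called higher, in 0.424% of those of genes called lower and in 0.638% of those of genes not called. A match is a description of the letters in this window, and 23 of the 30 genes with the largest changes had a promoter in the table.

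R1881 changed more than 1 gene in 3 in cells with the ERRγ siRNA. Of 17123 genes, 2849 were called higher (16.6%) and 3495 lower (20.4%), 6344 together (37%). Most changes were small, with a median absolute log2 change of 0.55 among called genes. The change was at least 2-fold for 470 higher and 492 lower genes, at least 4-fold for 114 and 66, and at least 8-fold for 40 and 17. The rises outnumbered the falls from 4-fold upward, while the falls outnumbered the rises over all called genes. The median log2 change over all genes was -0.02. Calls were more frequent among bright probes, at 49.9% of the 4281 genes with the highest mean signal against 9.74% of the 4280 with the lowest.

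**Figure D1:**
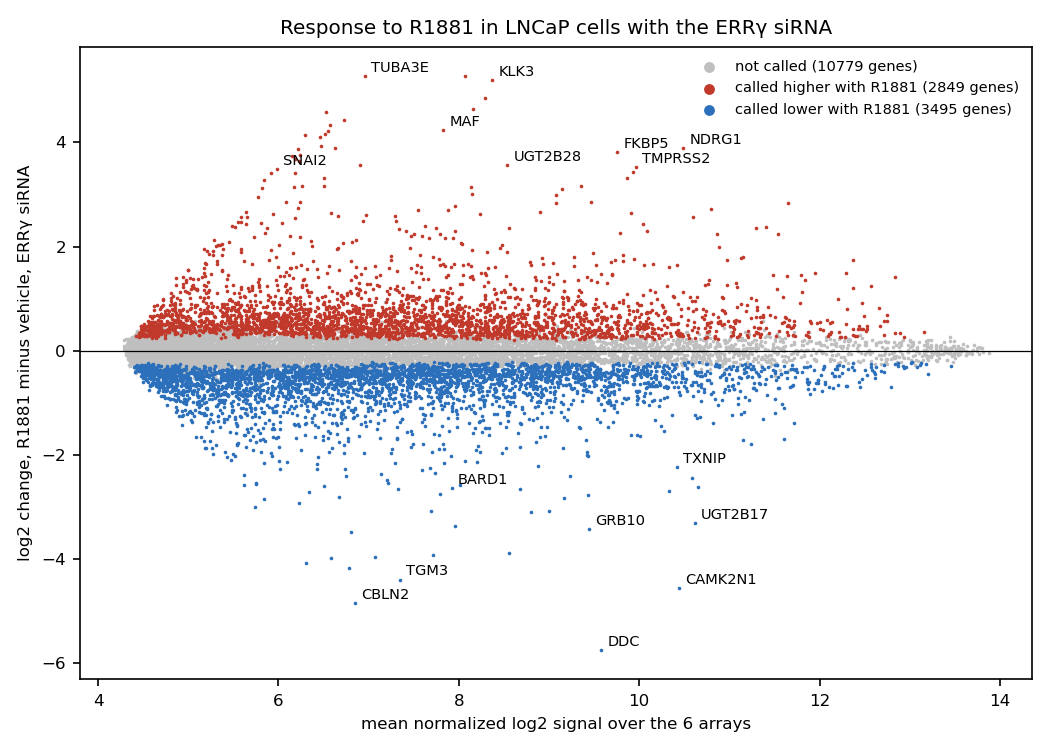
Log2 change of R1881 over vehicle with the ERRγ siRNA (vertical axis) against the mean normalized log2 signal of the 6 arrays (horizontal axis), 1 point per gene. The 2849 genes called higher and 3495 called lower lie above and below a band of 10779 genes that were not called, and the largest changes, such as KLK3 and DDC, exceed 5 log2 units.

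The kallikreins and other classical androgen targets rose strongly. KLK3, which encodes prostate-specific antigen, had log2 signals of 10.98, 10.93 and 11 with R1881, against 6.01, 5.45 and 5.84 with vehicle. All 3 R1881 arrays lay above all 3 vehicle arrays, a 36.9-fold rise (log2 change 5.2 ± 0.14 SE, limma adjusted p = 3.77e-12). On the authors' normalized values the KLK3 change was 3.37, and as the mean of its probes it was 3.11. KLK2, a related kallikrein, was not detected on any vehicle array, with signals of 4.50, 4.45 and 4.38, and stood at 8.6, 8.67 and 8.72 with R1881. For a gene undetected in one group only a bound can be given, the bright group's mean over the dim group's mean of, on each array, the higher of the lowest detected signal and the gene's own signal. By it, KLK2 was at least 16.7-fold higher with R1881 (limma adjusted p = 1.29e-12).

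TMPRSS2, a membrane serine protease whose gene is often fused to ETS factors in prostate cancer, had 11.82, 11.72 and 11.64 with R1881 against 8.19, 8.10 and 8.30 with vehicle, an 11.6-fold rise without overlap (limma adjusted p = 2.44e-12). FKBP5, a co-chaperone of steroid receptors, had 11.74, 11.60 and 11.65 with R1881 against 7.75, 8 and 7.79 with vehicle. Its rise was 14.1-fold (log2 change 3.82 ± 0.09 SE, limma adjusted p = 2.04e-12).

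The highest rises took in several gene families that are not kallikreins. GNMT, glycine N-methyltransferase, which consumes S-adenosylmethionine, had 10.54, 10.68 and 10.87 with R1881 against 5.41, 5.26 and 5.61 with vehicle, a 38.6-fold rise (limma adjusted p = 3.3e-12). MAF, a basic leucine zipper transcription factor, had 10.02, 9.86 and 9.97 with R1881 against 5.42, 5.89 and 5.82 with vehicle. Its log2 change was 4.24 ± 0.11 SE, or 2.74 as the mean of its probes. SLC2A3, the glucose transporter GLUT3, was undetected on all vehicle arrays and was at least 13.5-fold higher with R1881. NDRG1, a cytoplasmic protein known as a differentiation and hypoxia-responsive gene, had 12.54, 12.30 and 12.48 with R1881 against 8.42, 8.66 and 8.55 with vehicle, a 14.9-fold rise.

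Members of the alpha-tubulin 3 and TRIM families stood beside them, though their near-identical sequences mean that a probe may read more than 1 copy. TUBA3E was undetected on the vehicle arrays and at least 32-fold higher with R1881, TUBA3C at least 10.7-fold higher, and TUBA3D rose by 4.65 ± 0.14 SE on the log2 scale. TRIM51 rose by 4.86 ± 0.14 SE, TRIM48 was at least 20.3-fold higher and TRIM49D2 at least 11.7-fold higher. The zinc finger gene ZNF812 was at least 16-fold higher. ORM1, which encodes the acute-phase protein orosomucoid and has a close copy in ORM2, was detected on 1 of 3 vehicle arrays and rose by 4.10 ± 0.10 SE. Each of these 8 genes was called and had no overlap between the groups, which their choice required.

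The deepest fall was that of DDC, the aromatic amino acid decarboxylase that makes dopamine and serotonin. It had 6.5, 6.96 and 6.63 with R1881 against 12.45, 12.39 and 12.50 with vehicle, so that one of the brightest genes of the vehicle arrays was 53.8-fold lower (log2 change -5.75 ± 0.12 SE, limma adjusted p = 1.03e-12). CAMK2N1, an inhibitor of the kinase CaMKII, had 8.40, 8.02 and 8.10 with R1881 against 12.78, 12.70 and 12.69 with vehicle and was 23.4-fold lower. CBLN2, a cerebellin that organizes synapses, had 4.23, 4.36 and 4.69 with R1881, where 1 of 3 arrays detected it, against 9.23, 9.32 and 9.28 with vehicle. Its log2 change was -4.85 ± 0.18 SE.

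LRRN1, a leucine-rich repeat membrane protein, had 4.70, 4.79 and 4.60 with R1881 against 8.89, 8.76 and 8.97 with vehicle, and SLITRK3, a synaptic adhesion protein, changed by -3.47 ± 0.12 SE. OPRK1, the kappa opioid receptor, changed by -3.96 ± 0.12 SE. The secreted phospholipase PLA2G2A was undetected on all 3 R1881 arrays and at least 13.3-fold lower than with vehicle. BCHE, butyrylcholinesterase, had 6.49, 6.82 and 6.55 with R1881 against 10.62, 10.37 and 10.51 with vehicle, a 14.7-fold fall without overlap (limma adjusted p = 3.35e-12).

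GRB10, an adaptor that restrains insulin and IGF receptors, had 7.84, 7.63 and 7.72 with R1881 against 11.14, 11.09 and 11.21 with vehicle, a log2 change of -3.42 ± 0.11 SE or -2.03 as the mean of its probes. TGM3, a transglutaminase of epithelia, changed by -4.39 ± 0.10 SE. GASK1B, a Golgi-associated kinase-like protein, changed by -3.92 ± 0.11 SE or by -2.55 as the mean of its probes, and MANEA, a Golgi endomannosidase, by -3.36 ± 0.11 SE. C11ORF92 changed by -3.97 ± 0.10 SE and NIPSNAP3A by -3.10 ± 0.14 SE.

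**Figure D2:**
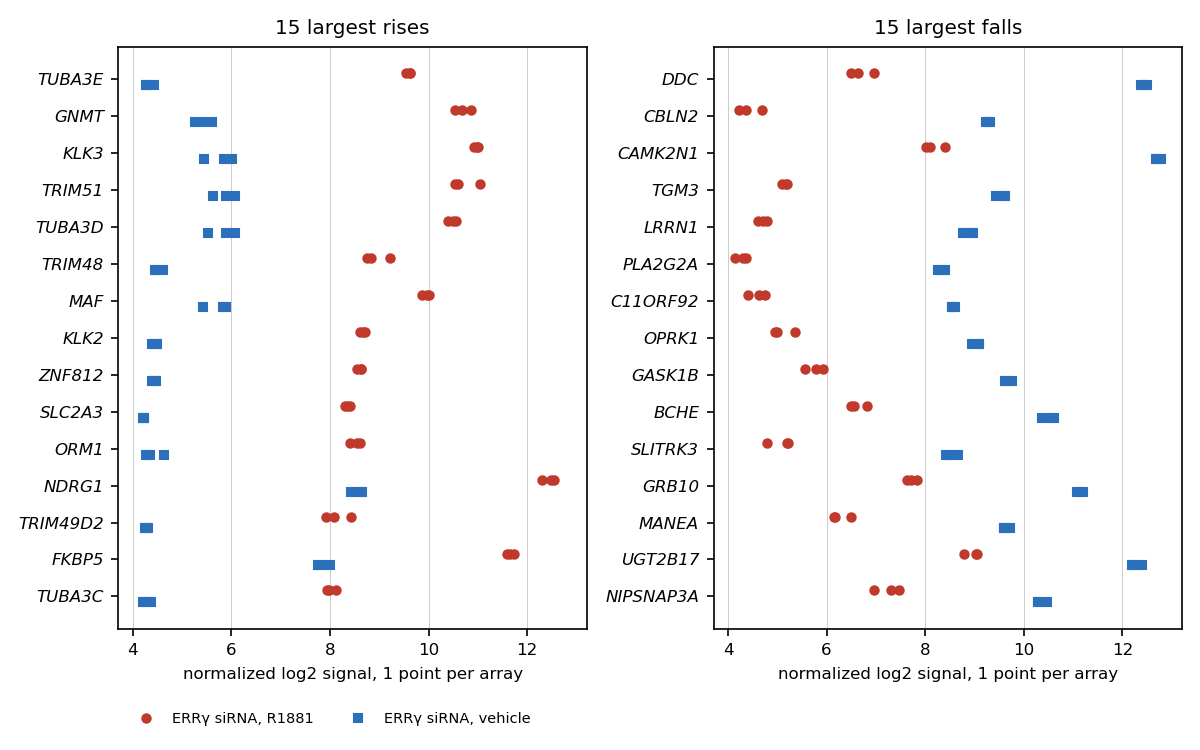
Normalized log2 signal on each array (horizontal axis) for the 15 largest rises and the 15 largest falls, with the 3 R1881 arrays as circles above the 3 vehicle arrays as squares in each row. The groups do not overlap for any of these genes, which their choice required, and vehicle signals of the rises from TUBA3E to TUBA3C often lie at the floor near 4.2 to 4.6.

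The size of these changes differed between ways of processing the signals. Of the 196 named genes that were called, 120 had a log2 change smaller by more than 1.5 times on the authors' normalized values, where 193 kept the call. Without background correction this held for 83, with 193 calls kept, and with an offset of 50 for 43, with 195 calls kept. NDRG1 had a log2 change of 3.71 on the authors' values against 3.89 here, and CAMK2N1 -4.32 against -4.55. GNMT had 3.16 against 5.27, TRIM51 3.11 against 4.86 and TUBA3E 2.25, with its vehicle arrays undetected.

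Most of the androgen-induced list rose. Of 64 measured genes that textbooks and earlier studies give as induced by androgen, 59 were called higher and 1 lower, against 16.6% and 20.4% of all genes. The list's median log2 change was 1.84, against -0.02 over all genes, and it was 0.91 on the authors' values. Of these genes, 60 had 3 R1881 values above all 3 vehicle values, where 22.5% of all genes did. The list was chosen with earlier results of these data known, so its counts are a description and no independent check. In it, 10 genes were undetected in 1 group and passed the detection filter through other arrays. The 1 member called lower was ACP3, prostatic acid phosphatase, at 9.45, 9.58 and 9.49 with R1881 against 9.94, 10.02 and 10.17 with vehicle (limma adjusted p = 0.00126).

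The list of genes taken as repressed by androgen was divided, and whether each member is repressed in prostate cells was not tested. Of 29 measured members, 16 were called lower (55.2%, against 20.4% of all genes) and 11 higher (37.9%, against 16.6%). The median was -0.86 (-0.25 on the authors' values). With the control siRNA 16 were likewise called lower and 11 higher. DDC and CAMK2N1 led the falls. Members that rose in spite of the list's name included UGT2B28, an enzyme that conjugates androgens to glucuronic acid, with 10.09, 10.47 and 10.40 with R1881 against 6.62, 6.74 and 6.89 with vehicle. CNTNAP2, a neuronal adhesion protein, also rose, by 2.50 ± 0.12 SE.

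Its relatives UGT2B17 and UGT2B15, which conjugate androgens as well, went the other way. UGT2B17 had 8.78, 9.06 and 9.04 with R1881 against 12.40, 12.19 and 12.21 with vehicle, a 9.9-fold fall (limma adjusted p = 1.89e-10). UGT2B15 had 7.60, 7.83 and 7.82 with R1881 against 10.66, 10.54 and 10.55 with vehicle, a 7.13-fold fall. The 3 genes are close copies, and which of them a probe reads was not tested. CYP11A1, the enzyme that starts steroid synthesis by cleaving the cholesterol side chain, rose by 1.96 ± 0.21 SE. Of 19 measured genes of steroid metabolism, 8 were called higher (42.1%, against 16.6% of all genes) and 4 lower (21.1%, near the 20.4% of all genes). Their median was 0.21.

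Coregulators of the androgen receptor fell more often than they rose. Of 29 measured, 10 were called lower (34.5%, against 20.4% of all genes) and 3 higher (10.3%, against 16.6%), with a median of -0.13. GATA2, a pioneer factor at androgen receptor sites, had 7.39, 7.46 and 7.47 with R1881 against 9.03, 8.80 and 8.95 with vehicle, a 2.8-fold fall. NCOA1, the steroid receptor coactivator SRC-1, fell by 1.06 ± 0.08 SE. FHL2, a LIM-domain coactivator, was undetected in vehicle and at least 1.7-fold higher with R1881, and GRHL2, a grainyhead factor, rose by 0.89 ± 0.14 SE. Among 16 chaperones of steroid receptors 3 rose (18.8%, near the 16.6% of all genes) and 2 fell (12.5%, against 20.4%). HSP90AB1 changed by -0.35 ± 0.09 SE and HSP90AA1 by -0.30 ± 0.10 SE, and the HSP90AA1 call was lost when any 1 of 5 of the 6 arrays was left out (limma adjusted p = 0.057 to 0.135).

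**Figure D3:**
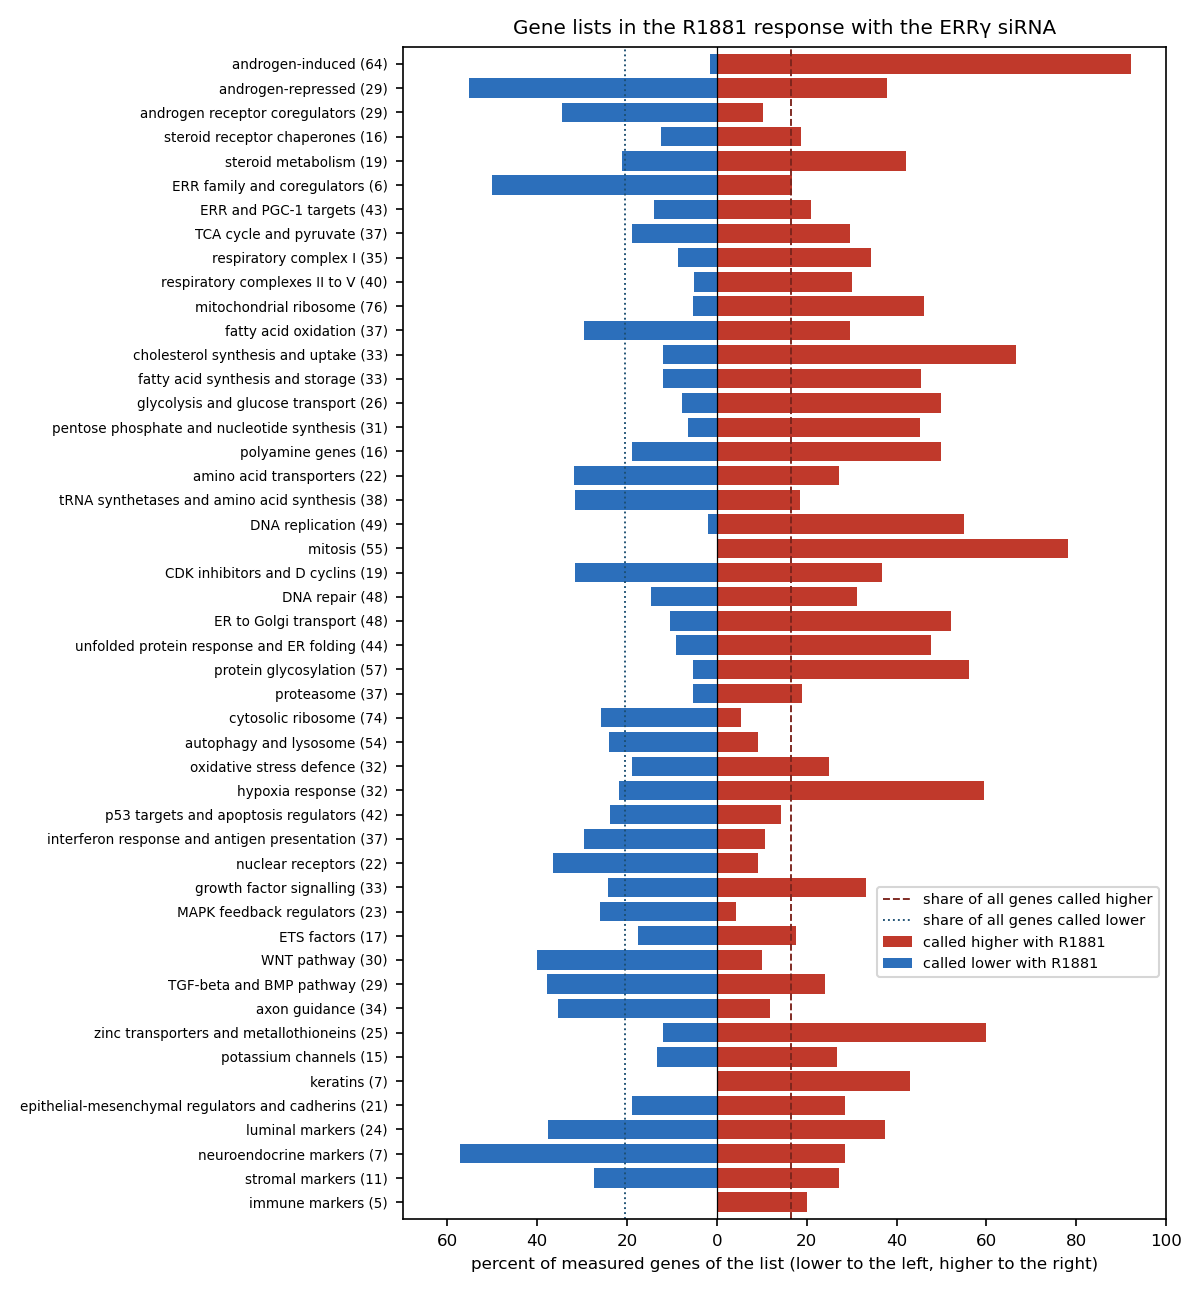
Share of the measured members called higher (right of 0) or lower (left of 0) with R1881 in cells with the ERRγ siRNA, for each list with at least 5 measured genes (number in brackets). Dashed and dotted lines give the shares over all 17123 genes (16.6% higher, 20.4% lower), and the androgen-induced and mitosis lists reach furthest to the right.

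Of 33 measured genes of cholesterol synthesis and uptake, 22 were called higher (66.7%, against 16.6% of all genes) and 4 lower (12.1%, against 20.4%). Their median log2 change was 0.98 (0.55 on the authors' values). NPC1, which carries cholesterol out of lysosomes, had 9.58, 9.43 and 9.64 with R1881 against 6.77, 6.89 and 7.11 with vehicle, a 6.17-fold rise (limma adjusted p = 9.42e-11). The falls were led by the cholesterol exporters: ABCA1 was undetected with R1881 and at least 4.92-fold lower, and ABCG1 fell by 1.62 ± 0.11 SE (0.86 as the mean of its probes, also a fall).

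Of 33 measured genes of fatty acid synthesis and storage 15 rose (45.5%, against 16.6% of all genes) and 4 fell (12.1%, against 20.4%). Their median was 0.11. ACSL3, which activates long-chain fatty acids, had 12.17, 12.16 and 12.15 with R1881 against 9.37, 9.36 and 9.55 with vehicle, a 6.64-fold rise without overlap. FADS2, a fatty acid desaturase, rose by 1.65 ± 0.12 SE, while SCD5, another desaturase, fell by 1.66 ± 0.12 SE. AGPAT2, an enzyme of phospholipid and triglyceride synthesis, fell by 0.87 ± 0.09 SE. Fatty acid oxidation was evenly split, with 11 of 37 genes higher and 11 lower (29.7% each, against 16.6% and 20.4% of all genes). CROT, a peroxisomal acyltransferase, rose by 1.65 ± 0.08 SE and ECI2, an isomerase for unsaturated acyl chains, by 1.23 ± 0.11 SE, while the mitochondrial thiolase ACAA2 fell by 1.03 ± 0.11 SE and the dehydrogenase ACAD11 by 1 ± 0.10 SE.

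Of 55 measured genes of mitosis, 43 were called higher (78.2%, against 16.6% of all genes) and 0 lower (against 20.4%). The list's median log2 change was 0.57 (0.19 on the authors' values). Its lowest member changed by -0.27 and its highest, CENPN, a centromere protein, by 2.43. CENPN had 11.24, 11.30 and 11.24 with R1881 against 8.89, 8.89 and 8.72 with vehicle. KIF20A, a kinesin of the central spindle, rose by 1.05 ± 0.10 SE.

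Of 49 measured DNA replication genes, 27 were called higher (55.1%, against 16.6% of all genes), with a median of 0.32 for the list. RPA1, a single-strand binding subunit, was the 1 gene called lower (2.04%, against 20.4%). ORC5, a subunit of the origin recognition complex, rose by 1.42 ± 0.10 SE and CDC45, part of the replicative helicase, by 1.18 ± 0.12 SE. RRM2, the ribonucleotide reductase subunit that supplies deoxynucleotides, rose by 1.51 ± 0.13 SE. CDKN2B, the inhibitor p15 of the CDK4 and CDK6 kinases, rose as well, at 6.84, 6.77 and 6.85 with R1881 against 4.76, 4.54 and 4.63 with vehicle. CDKN2C, the related inhibitor p18, fell by 1.65 ± 0.10 SE (0.87 as the mean of its probes, also a fall), and the atypical cyclin CCNG2 fell by 1.91 ± 0.10 SE. Of 19 measured genes on a list of CDK inhibitors, D and G cyclins, CDKs, RB family members and E2F3, 7 rose and 6 fell. These were shares of 36.8% and 31.6%, against 16.6% and 20.4% of all genes.

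Of 48 measured DNA repair genes 15 were called higher (31.2%, against 16.6% of all genes) and 7 lower (14.6%, against 20.4%), with a median of 0.08. BARD1, the partner of BRCA1, stood out among the falls, at 6.69, 6.54 and 6.58 with R1881 against 9.25, 9.25 and 9.23 with vehicle, a 6.21-fold fall (limma adjusted p = 1.2e-11). ERCC1, of nucleotide excision repair, fell by 0.82 ± 0.09 SE (0.50 as the mean of its probes, also a fall). FANCI, of interstrand crosslink repair, rose by 0.86 ± 0.11 SE and RAD54L, of homologous recombination, by 0.71 ± 0.11 SE.

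Of 57 measured genes of protein glycosylation 32 were called higher (56.1%) and 3 lower (5.26%), with a median of 0.31. Of 48 genes of transport between endoplasmic reticulum and Golgi, 25 were higher (52.1%) and 5 lower (10.4%), with a median of 0.27. Of 44 genes of the unfolded protein response and protein folding, 21 were higher (47.7%) and 4 lower (9.09%), with a median of 0.28. Over all genes the shares were 16.6% higher and 20.4% lower. ST6GALNAC1, a sialyltransferase of mucin-type glycans, was undetected in vehicle and at least 8.12-fold higher with R1881. UAP1, which makes the sugar donor UDP-N-acetylglucosamine, rose by 1.63 ± 0.12 SE, and KDELR3, a receptor that returns escaped proteins to the endoplasmic reticulum, by 1.24 ± 0.11 SE.

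ERN1, the stress sensor IRE1, had 8.56, 8.59 and 8.53 with R1881 against 6.28, 6.22 and 6.27 with vehicle, a 4.93-fold rise. ATF3, a stress-induced transcription factor, rose by 1.66 ± 0.10 SE. DDIT3, the stress factor CHOP, fell by 0.85 ± 0.09 SE and HSPA5, the chaperone BiP, by 0.54 ± 0.10 SE. The stress and folding genes thus did not share 1 direction. Without vehicle replicate 1, 2 of the folding list's genes were called lower, and the lower transport genes numbered 3 without vehicle replicate 1 or 3 or R1881 replicate 1 or 3.

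Of 26 genes of glycolysis and glucose transport 13 were called higher (50%, against 16.6% of all genes) and 2 lower (7.69%, against 20.4%). Their median was 0.34 (0.29 with genes undetected in 1 group at their bound). PFKFB2, which makes an activator of glycolysis, rose by 1.73 ± 0.12 SE. It was detected on 1 of 3 vehicle arrays and changed by 0.32 on the authors' values, so its size is uncertain. The 2 that fell were ENO2, neuron-specific enolase, by 1.47 ± 0.10 SE, and PFKM, the muscle phosphofructokinase, by 0.82 ± 0.11 SE. Of 32 hypoxia response genes 19 were higher (59.4%, against 16.6% of all genes) and 7 lower (21.9%, near the 20.4% of all genes). SLC2A3 and NDRG1 led the rises, and INSIG2, which holds back sterol synthesis, fell by 1.24 ± 0.13 SE.

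Polyamine genes were among the brightest to rise. SAT1, which acetylates spermidine and spermine for export, had 12.59, 12.51 and 12.66 with R1881 against 10.16, 10.22 and 10.24 with vehicle, a 5.19-fold rise. SMS, spermine synthase, had 12.63, 12.74 and 12.60 with R1881 against 10.51, 10.37 and 10.38 with vehicle, a 4.71-fold rise. Of 16 measured polyamine genes 8 were higher (50%, against 16.6% of all genes) and 3 lower (18.8%, near the 20.4% of all genes). Their median was 0.43. SAT2, an acetyltransferase related to SAT1, fell by 0.44 ± 0.09 SE.

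Genes of nucleotide and amino acid supply went both ways. Of 31 genes of the pentose phosphate pathway and nucleotide synthesis 14 were called higher (45.2%, against 16.6% of all genes), with a median of 0.26. In this list 2 were called lower (6.45%, against 20.4%). IMPDH1, an isoform of the enzyme that commits purines to guanine nucleotides, had 10.51, 10.31 and 10.49 with R1881 against 8.95, 9.01 and 8.94 with vehicle, a rise by 1.47 ± 0.09 SE (0.79 as the mean of its probes). Its sister isoform IMPDH2 had 11.02, 11.17 and 11.39 with R1881 against 11.97, 11.84 and 11.89 with vehicle and fell by 0.71 ± 0.11 SE. In serine synthesis, PHGDH, the first enzyme, fell by 0.72 ± 0.09 SE and PSAT1, the second in the pathway, fell by 0.90 ± 0.11 SE, while SHMT1, which turns serine into glycine, rose by 0.98 ± 0.09 SE. Of 22 amino acid transporters 6 were higher (27.3%, against 16.6% of all genes) and 7 lower (31.8%, against 20.4%). SLC7A5, the large neutral amino acid exchanger LAT1, had 4.7, 4.54 and 4.84 with R1881 against 5.91, 6.01 and 5.95 with vehicle. It was detected on 2 of 3 R1881 arrays, and on the authors' values its log2 change was -0.22. SLC43A1, the related LAT3, was undetected in vehicle and at least 2.11-fold higher with R1881.

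Of 37 proteasome genes 7 were called higher (18.9%, near the 16.6% of all genes) and 2 lower (5.41%, against 20.4%). Their median was 0.15, and 12 were called higher on the authors' values. PSMD8, a regulatory subunit, rose by 1.05 ± 0.13 SE and PSMA4, a core subunit, fell by 0.44 ± 0.11 SE. Of 54 autophagy and lysosome genes 13 were called lower (24.1%, against 20.4% of all genes) and 5 higher (9.26%, against 16.6%). Their median was -0.09. WIPI1, which marks the growing autophagosome, had 7.01, 6.85 and 7.11 with R1881 against 4.85, 4.51 and 4.79 with vehicle, a rise by 2.27 ± 0.11 SE. ATG3, the enzyme that joins LC3 to lipid, had 8.81, 8.98 and 8.86 with R1881 against 10.3, 10.13 and 10.16 with vehicle, a fall by 1.31 ± 0.09 SE (0.84 as the mean of its probes, also a fall).

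Other nuclear receptors were lower more often than higher. Of 22 measured, 8 were called lower (36.4%, against 20.4% of all genes) and 2 higher (9.09%, against 16.6%), with a median of -0.18. NR3C2, the mineralocorticoid receptor, had 5.79, 5.71 and 5.34 with R1881 against 6.91, 7.13 and 6.97 with vehicle and fell by 1.39 ± 0.11 SE. THRA, a thyroid hormone receptor, fell by 1.02 ± 0.10 SE. The 2 called higher were NR2F6, an orphan receptor, by 0.38 ± 0.08 SE, and NR3C1, the glucocorticoid receptor, which was undetected in vehicle, at least 1.06-fold higher, and lost its call without any 1 of 4 arrays, namely vehicle replicate 1 or 3 or R1881 replicate 2 or 3 (limma adjusted p = 0.0532 to 0.0888).

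Metabolism of the mitochondrion is the process ERRγ is best known for, and its genes had smaller changes. Of 6 measured ERR family members and coregulators 1 was called higher (16.7%) and 3 lower (50%), against 16.6% and 20.4% of all genes. NCOA1 and NRIP1, the corepressor RIP140, were lower, NRIP1 by 0.63 ± 0.12 SE. PPRC1, a PGC-1-related coactivator, had a change of 0.35 ± 0.10 SE whose call was lost in 4 of the 6 fits that left out 1 array of either group (limma adjusted p = 0.0507 to 0.0617). Of 43 genes listed as targets of ERR or PGC-1, 9 were called higher (20.9%) and 6 lower (14%), with a median of 0.05, shares near the 16.6% and 20.4% over all genes. VEGFA, the vascular growth factor, rose by 1.05 ± 0.14 SE and CKMT1A, mitochondrial creatine kinase, by 0.90 ± 0.09 SE. ATP1B1, a subunit of the sodium pump, fell by 1.71 ± 0.09 SE.

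Of 37 genes of the citric acid cycle and pyruvate entry 11 were higher (29.7%, against 16.6% of all genes), with a median of 0.05. The 7 lower genes (4 without vehicle replicate 3) made up 18.9%, near the 20.4% of all genes. MPC2, a subunit of the mitochondrial pyruvate carrier, had 12.20, 12.27 and 12.16 with R1881 against 10.73, 10.79 and 10.74 with vehicle, a 2.74-fold rise. IDH1, the cytosolic isocitrate dehydrogenase, rose 2.47-fold. GLS2, liver-type glutaminase, fell by 0.99 ± 0.11 SE and ME2, mitochondrial malic enzyme, by 0.62 ± 0.11 SE. Of 76 genes of the mitochondrial ribosome 35 were higher (46.1%, against 16.6% of all genes) and 4 lower (5.26%, against 20.4%). Their median was 0.22. MRPS18A rose 3.04-fold, MRPL17 rose by 0.88 ± 0.09 SE, and MRPS27 fell by 0.73 ± 0.08 SE.

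Respiratory chain genes were called higher more often than lower, but the counts turned on single arrays. Of 35 complex I genes 12 were called higher (34.3%) and 3 lower (8.57%), with a median of 0.25. Of 40 genes of complexes II to V, 12 were higher (30%) and 2 lower (5%), with a median of 0.16. Over all genes the shares were 16.6% higher and 20.4% lower. Without vehicle replicate 1 of the ERRγ siRNA the rises numbered 5 in complex I and 5 in complexes II to V. Without vehicle replicate 3 the complex I rises numbered 7, and without R1881 replicate 1 they numbered 7 and those of complexes II to V 6. The falls in complex I numbered 1 without vehicle replicate 2 or R1881 replicate 1, and in complexes II to V 1 without vehicle replicate 1, vehicle replicate 3 or R1881 replicate 3. The mean deviation of the complex I list from its mean over the 12 arrays was 0.07, 0.04 and 0.09 with R1881, against -0.26, 0.00 and -0.15 with vehicle. With the control siRNA it was 0.14, -0.21 and 0.00 with R1881 and 0.09 on each of the 3 vehicle arrays. The 3 R1881 arrays with the ERRγ siRNA agreed closely, while vehicle arrays with that siRNA and R1881 arrays with the control siRNA spread widely, and the part this spread had in the counts was not tested.

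ATP5ME, a small subunit of ATP synthase, shows the same spread, with 12.45, 12.11 and 12.17 with R1881 against 10.92, 11.84 and 11.20 with vehicle, where replicate 2 came nearest to the R1881 arrays. NDUFC1, a small complex I subunit, had 9.40, 9.25 and 9.28 with R1881 against 8.22, 9.09 and 8.48 with vehicle, and its call was lost without vehicle replicate 1 (log2 change 0.52, limma adjusted p = 0.0609). NDUFB1 rose by 0.73 ± 0.13 SE and UQCR10, of complex III, by 1.03 ± 0.21 SE or 0.48 as the mean of its probes. NDUFB4, whose promoter is shown above, was lower, at 6.90, 6.70 and 6.89 with R1881 against 7.48, 7.90 and 7.56 with vehicle, a fall by 0.82 ± 0.18 SE (limma adjusted p = 0.00237). NDUFB5 changed by -0.35 ± 0.11 SE, and its call was lost without vehicle replicate 1 or 2 or R1881 replicate 1 (limma adjusted p = 0.0542 to 0.0942).

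Metallothioneins, small proteins that bind zinc, had the same vehicle array pattern at a larger size. MT1X had 10.45, 10.26 and 10.32 with R1881 against 8.34, 9.23 and 8.55 with vehicle, and MT1G had 8.77, 8.41 and 8.68 with R1881 against 6.51, 7.39 and 7 with vehicle. All R1881 values lay above all vehicle values for both, which belong to a family of near-identical genes. Of 25 zinc transporters and metallothioneins 15 were higher (60%, against 16.6% of all genes) and 3 lower (12%, against 20.4%). Their median was 0.51. SLC39A8, a zinc importer, fell by 1.22 ± 0.10 SE.

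**Figure D4:**
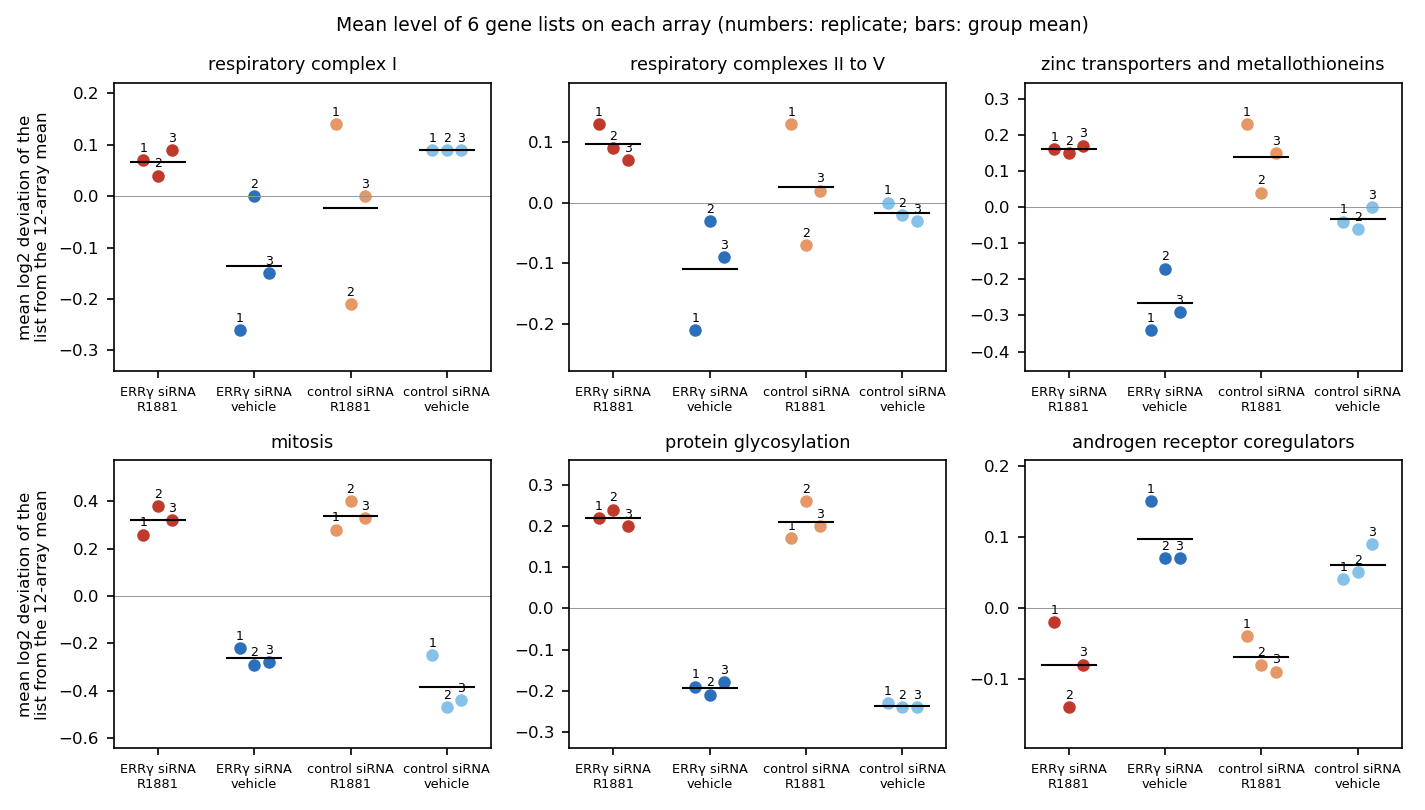
Mean log2 deviation of 6 gene lists from their mean over the 12 arrays (vertical axis), 1 point per array, numbered by replicate, with bars for group means. Mitosis and protein glycosylation part the R1881 arrays from the vehicle arrays with either siRNA, while complex I spreads from -0.26 to 0.00 among the vehicle arrays with the ERRγ siRNA.

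The response with the ERRγ siRNA was then set against that with the control siRNA, which asks whether the siRNA altered the response to androgen. The arrays of the 2 responses are separate but were normalized together. With the control siRNA 3035 genes were called higher and 3814 lower (17.7% and 22.3% of genes, 40% together). Of the genes called in both, 4861 had the same direction, 76.6% of the calls with the ERRγ siRNA and 71% of those with the control siRNA, and 16 had opposite directions. Across genes, which are not independent replicates, the 2 sets of log2 changes correlated at Pearson's r = 0.895 and Spearman's rho = 0.765. Among genes called in both, the median absolute change was 0.616 with the ERRγ siRNA and 0.633 with the control siRNA, and it was larger with the ERRγ siRNA for 2272 genes and smaller for 2605.

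**Figure D5:**
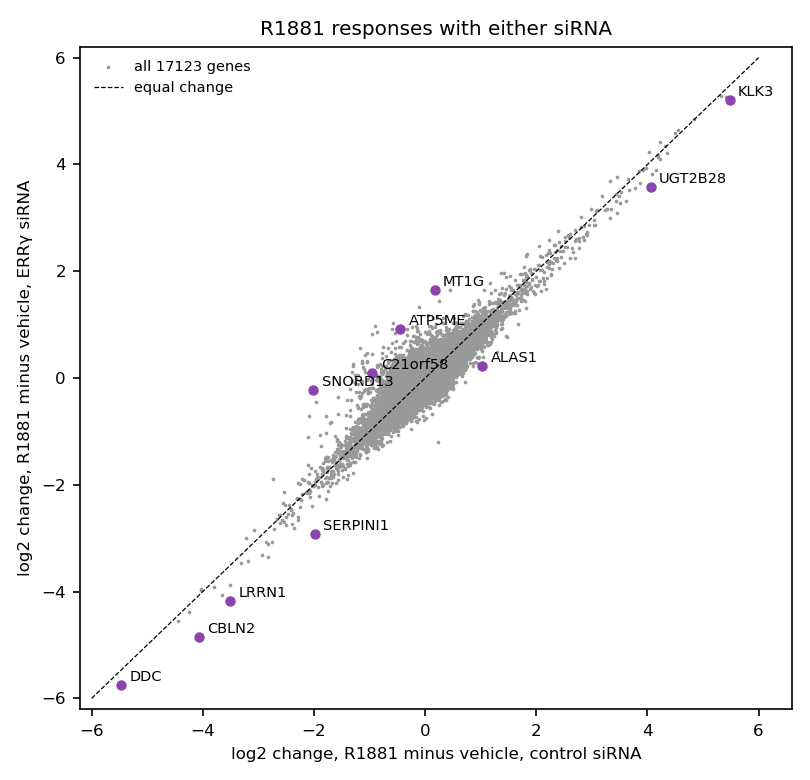
Log2 change of R1881 over vehicle with the ERRγ siRNA (vertical axis) against that with the control siRNA (horizontal axis), 1 point for each of 17123 genes, with the line of equal change dashed. Large changes such as KLK3 and DDC lie near the line, and SNORD13, MT1G and ATP5ME lie above it.

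A test of the difference itself called no gene. In limma's interaction term 0 of 17123 genes (0%) passed, with a lowest adjusted p of 0.0962, while 1891 genes (11%) had an unadjusted p under 0.05, of which 1096 had a more positive and 795 a more negative change with the ERRγ siRNA. Leaving out 1 array of the control siRNA changed this: without its R1881 replicate 1, 175 genes were called (164 more positive and 11 more negative). It was 50 with an offset of 50, 38 with a trended and robust variance, 14 with no background correction and 1 on the authors' values. The 95% interval of the difference excluded a 2-fold difference for 16481 genes (96.3%).

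The genes with the lowest p for the difference were of varied kinds. SNORD13, a small nucleolar RNA, had 4.35, 4.52 and 4.85 with R1881 against 4.68, 4.79 and 4.94 with vehicle in cells with the ERRγ siRNA. With the control siRNA it had 5.07, 4.32 and 4.36 with R1881 against 6.6, 6.56 and 6.63 with vehicle. The control vehicle arrays were thus set apart from all others, and the difference of responses was 1.78 (95% interval 1.25 to 2.32, limma adjusted p = 0.0962). Most of the other signals lay near the lowest detected signal of an array (4.54 to 4.63). With the ERRγ siRNA 1 of 3 R1881 arrays detected SNORD13. The size is therefore uncertain, and on the authors' values the difference was 0.39. C21orf58 had 8.94, 8.76 and 9.15 with R1881 against 8.99, 8.87 and 8.72 with vehicle for the ERRγ siRNA. For the control siRNA it had 8.80, 8.65 and 8.59 with R1881 against 9.48, 9.71 and 9.70 with vehicle, and the difference was 1.05 (interval 0.69 to 1.40, limma adjusted p = 0.118). PLA2G2D, a secreted phospholipase, had a difference of 0.90 (0.60 to 1.19).

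On the negative side, SERPINI1, the serine protease inhibitor neuroserpin, had 4.85, 4.70 and 4.76 with R1881 against 7.80, 7.57 and 7.70 with vehicle in cells with the ERRγ siRNA. With the control siRNA it had 4.89, 5.25 and 5.34 with R1881 against 7.41, 6.96 and 7.09 with vehicle, so that it was lower with R1881 on all arrays of either siRNA and the difference was -0.93 (interval -1.33 to -0.52, limma adjusted p = 0.21). ALAS1, the rate-limiting enzyme of haem synthesis, had 5.83, 5.98 and 6.10 with R1881 against 5.84, 5.78 and 5.64 with vehicle in cells with the ERRγ siRNA. With the control siRNA it had 6.67, 6.5 and 6.67 with R1881 against 5.81, 5.58 and 5.34 with vehicle, and the difference was -0.82 (-1.18 to -0.45, limma adjusted p = 0.21). MGC45491 was not well above background on the 3 R1881 arrays with the ERRγ siRNA, and no size is given for it. Each of these 6 genes was called for the difference under at least 1 of the settings above. Without control R1881 replicate 1 the limma adjusted p-values were 0.00102 for SNORD13, 0.0151 for C21orf58, 0.0165 for SERPINI1, 0.0192 for PLA2G2D and 0.0277 for MGC45491. ALAS1 was called with an offset of 50 (limma adjusted p = 0.0488).

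Some of the largest responses also differed at an unadjusted p under 0.05, though none was called. LRRN1 changed by -4.17 with the ERRγ siRNA and -3.51 with the control siRNA (difference -0.66, interval -1.05 to -0.28), CBLN2 by -4.85 and -4.07 (difference -0.78, interval -1.33 to -0.24), and MANEA by -3.36 and -2.82. With R1881 and the ERRγ siRNA, CBLN2 was detected on 1 of 3 arrays. LRRN1 had 4.60 to 4.79 there, close to the lowest detected signals (4.54 to 4.63). The sizes of the differences for CBLN2 and LRRN1 are therefore uncertain. UGT2B28 changed by 3.57 and 4.06 (difference -0.49, interval -0.93 to -0.06). KLK3, with 5.2 and 5.48, had an interval of the difference that included 0.

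Among the lists, the respiratory chain and zinc genes had the largest shares of members with an unadjusted p under 0.05 for the difference, where 11% of all genes had one. In complex I these were 15 more positive and 2 more negative of 35, in complexes II to V 11 and 4 of 40, and among zinc transporters and metallothioneins 7 and 2 of 25. The complex I median was 0.25 with the ERRγ siRNA and -0.06 with the control siRNA, where 3 genes were called higher and 5 lower. MT1G had the largest difference of these lists' named genes, 1.48 (interval 0.80 to 2.16, limma adjusted p = 0.225), with control siRNA signals of 8.97, 8.03 and 8.47 with R1881 against 8.27, 8.42 and 8.26 with vehicle. ATP5ME followed with 1.38 (0.62 to 2.13), with control siRNA signals of 12.56, 11.50 and 11.67 with R1881 against 12.35, 12.38 and 12.35 with vehicle. For both, the vehicle arrays with the ERRγ siRNA were lower than those with the control siRNA, and control R1881 replicate 1 was the highest array of its group. The androgen-induced list, by contrast, had 0 more positive and 4 more negative of 64, and its medians were 1.84 and 1.93.

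Without androgen, 45 genes differed between the siRNAs by limma's adjusted p (3 higher and 42 lower with the ERRγ siRNA, with 2658 at an unadjusted p under 0.05), and with R1881 0 did (1048 at an unadjusted p under 0.05).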

How the data were processed

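Bead arrays measured RNA in 12 LNCaP samples. The authors deposited a raw intensity and a detection p-value for each probe and array, per the file headers, and a second table of normalized values whose range is that of log2 signals. How the authors made them is not given in the sources used here. A deposited series matrix held the same values (largest difference 0) and was not used. The probes come with no genome build.

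Raw intensities were background-corrected with limma's nec (from detection p-values, offset 16), quantile-normalized over the 12 arrays and log2-transformed (limma 3.58.1, R 4.3.3 and version 1.17.8 of data.table). Probes detected (p under 0.05) on at least 3 arrays were kept, without the 92 spike-in controls, leaving 21959 of 47323. Names came from RefSeq accessions (28588 probes), current symbols (2477) or the deposited name (16258), and the brightest probe stood for each of 17123 genes, 3781 of which had several. One linear model with a mean per group was fitted over all 12 arrays (lmFit, eBayes, two-sided, Benjamini-Hochberg over all genes), with contrasts for R1881 with each siRNA, their difference and the siRNA within each treatment. The model was also run on simulated data with independent noise and few changed genes, a simpler setting than these data.

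Named genes were, among called genes without overlap and with a name other than a clone number, the 15 highest and 15 lowest changes, the 6 of each among the 4281 brightest genes, up to 2 rising and 2 falling members of each of 49 lists, the 3 lowest p in each direction of the difference, and ESRRG, ESRRA, ESRRB, KLK3, KLK2, TMPRSS2 and FKBP5. Some genes that the rule names are not reported here. Members, lists and rules were chosen with earlier results of these data known. Replicate numbers were not used to pair the samples. Same-numbered arrays' deviations from group means correlated at -0.258 to 0.127, against -0.112 to 0.267 for different numbers. This showed no pairing, though 3 arrays a group cannot exclude it. Alternatives changed the input values, background, offset, filter, probe rule, arrays, variance model and replicate block.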

Additional observations from a re-analysis of the deposited data

How the results depend on the processing

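The counts of 2849 higher and 3495 lower genes kept their direction and stayed within 1.5 times under every alternative run, except where a 1.5-fold minimum was added, which left 1319 higher, 1535 lower and 3072 with the control siRNA. Leaving out each replicate in turn gave 2423 to 2965 higher, 3056 to 3619 lower and 6035 to 6791 with the control siRNA. With the replicate block 2735 were higher, 3401 lower and 6686 called with the control siRNA, and the difference stayed at 0. No R1881 array of the ERRγ siRNA correlated best with the vehicle array of its own number. For the difference of responses, the genes more positive with the ERRγ siRNA numbered 1 on the authors' values, 14 without background correction, 48 with offset 50 and 37 with a trended, robust variance, and 0 to 164 with 1 replicate left out. Those more negative numbered 2 with offset 50, 1 with the trended variance and 0 to 11 with 1 replicate left out. The highest of both came without control R1881 replicate 1, and 1 gene was called without vehicle replicate 2 of the ERRγ siRNA; the cause was not tested. Lost calls of single genes: NR3C1 and FOSB on the authors' values and without background correction, NR3C1 also with offset 50 and with the trended variance, SLC30A4 on the authors' values, TAP2 without background correction, SDHC and AZIN1 as the mean of their probes, and HSP90AA1 with the block. As the mean of each gene's probes 8 cytosolic ribosome genes were higher, and on the authors' values or without background correction 2 interferon genes. Signal limits dim genes: 192 higher genes were undetected in vehicle and 235 lower genes undetected with R1881.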

Other observations

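Of 30 measured WNT pathway genes 12 were called lower (40%) and 3 higher (10%), of 29 TGF-beta and BMP genes 11 lower (37.9%) and 7 higher (24.1%), and of 34 axon guidance genes 12 lower (35.3%) and 4 higher (11.8%; 2 higher without vehicle replicate 1 or 2, and 1 without R1881 replicate 1), against 20.4% lower and 16.6% higher over all genes. WLS, the carrier that brings WNT proteins to the cell surface, had 7.07, 6.77 and 6.94 with R1881 against 8.54, 8.5 and 8.54 with vehicle, a fall by 1.60 ± 0.10 SE. The receptor FZD3 fell by 1.5 ± 0.12 SE, while the receptor FZD5 rose by 1.95 ± 0.15 SE. FZD5 was detected on 1 of 3 vehicle arrays and changed by 0.37 on the authors' values, so its size is uncertain. ID3, a BMP-induced inhibitor of helix-loop-helix factors, was undetected with R1881 and at least 3.42-fold lower, whereas its relative ID2 rose by 1.75 ± 0.11 SE. PMEPA1, a membrane protein that restrains TGF-beta signalling, had 9.84, 9.61 and 9.75 with R1881 against 7.42, 7.35 and 7.39 with vehicle, a rise by 2.35 ± 0.12 SE. EPHA3, an ephrin receptor, fell by 1.74 ± 0.08 SE (1.09 as the mean of its probes, also a fall) and the ephrin EFNB2 fell by 1.46 ± 0.10 SE. In growth factor signalling 11 of 33 genes rose (33.3%) and 8 fell (24.2%). ERRFI1, a feedback inhibitor of the EGF receptor, rose by 2.67 ± 0.10 SE and INPP4B, a lipid phosphatase, by 2.45 ± 0.11 SE. INPP4B was detected on 1 of 3 vehicle arrays and changed by 0.58 on the authors' values, so its size is uncertain. PIK3R1, the regulatory subunit of PI3-kinase, fell by 1.29 ± 0.11 SE (0.63 as the mean of its probes).

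Antigen presentation, stress and identity genes did not move as blocks. Of 37 interferon and antigen presentation genes 11 fell (29.7%, against 20.4% of all genes) and 4 rose (10.8%, against 16.6%). B2M, the light chain of class I antigen-presenting molecules, was among the rises. It had 11.53, 11.41 and 11.28 with R1881 against 10.09, 10.11 and 10.17 with vehicle. The rises in that list numbered 1 without vehicle replicate 3 or without R1881 replicate 1, and 2 without vehicle replicate 1 or 2 or R1881 replicate 3. TXNIP, which binds thioredoxin and curbs glucose uptake, had 9.22, 9.32 and 9.38 with R1881 against 11.54, 11.53 and 11.55 with vehicle, a 4.7-fold fall. The p53 targets SESN1 and TP53INP1 fell by 1.94 ± 0.10 and 1.86 ± 0.11 SE, and TNFRSF10B, a death receptor, rose by 1.13 ± 0.08 SE (0.71 as the mean of its probes). Of 74 cytosolic ribosome genes 19 fell (25.7%, against 20.4% of all genes) and 4 rose (5.41%, against 16.6%). Of 24 luminal markers 9 rose (37.5%, against 16.6% of all genes) and 9 fell (37.5%, against 20.4%). CD24 changed by -1.85 ± 0.10 SE (-1.05 as the mean of its probes), and KRT8, a luminal keratin, was 3.04-fold higher. SNAI2, a repressor of epithelial genes, was undetected in vehicle and at least 8.77-fold higher with R1881, and the potassium channels KCNN2 and KCNMA1 rose by 1.88 ± 0.08 and 1.67 ± 0.10 SE. Of 5 measured immune markers 1, CD68, a lysosomal protein, was called higher, and of 2 measured basal markers 1, LAMA3, rose. These were shares of 20% and 50% of very short lists, against 16.6% of all genes.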
